A study of Mus musculus with 10 samples.

Results

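The mRNA levels of 10 genes of the Hippo signaling output were followed in MC3T3-E1 cells, a pre-osteoblast line from mouse calvaria, as the cultures grew to confluence and then matured. The genes were taken by name from the 40620 genes counted. They were the coactivators Yap1 and Wwtr1 (the gene for TAZ), the DNA-binding partners Tead1, Tead2, Tead3 and Tead4, and the targets Ccn1 (also called Cyr61), Ccn2 (also called Ctgf), Ankrd1 and Amotl2. All 10 were detected in every library and passed the filter on low counts.

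The Hippo pathway is a kinase cascade that reports on cell crowding, cell shape and tension. When cells are sparse and spread, YAP and TAZ enter the nucleus, bind TEAD proteins and switch on genes such as Ccn1, Ccn2, Ankrd1 and Amotl2, while in crowded cells the LATS kinases phosphorylate YAP and TAZ and hold them in the cytoplasm. This step acts on the proteins, and RNA-seq measures only the mRNA of the regulators and of their targets.

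Cells of this subcloned line were sampled at 5 stages, with 2 replicates (A and B) at each. Subconfluent and confluent cells were in growth medium with 10% serum, and cells at 24 h, 14 d and 21 d were in osteogenic medium, the same base with ascorbic acid at 50 µg/ml and β-glycerophosphate at 10 mM, additions that drive matrix formation and mineralization. No genotype was altered at any stage. The sources used here do not say whether replicates were separate cultures, so the p-values measure the spread between these samples, which may be technical.

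Total counts per library ran from 44736156 to 162939333. Levels are given as the authors' RPKM, in which counts are scaled by gene length and by sequencing depth and which allow genes to be compared per length. Changes are log2 fold changes from edgeR's quasi-likelihood fit to the counts of all 10 libraries, in which 20808 genes were tested, and a gene passed at a Benjamini-Hochberg adjusted p under 0.05. The replicates at 24 h stood apart from each other. The SD of the log2 A/B ratio was 0.69 there, against 0.29 to 0.33 at the other stages. This SD does not show which of the replicates departs. The summed counts over the read total behind the RPKM came to 1.601 in 24 h A and 1.467 in 24 h B. In the libraries of the other stages this ratio ran from 1.443 to 1.52, so in this respect 24 h A lay apart and 24 h B did not. The cause was not tested. The tested changes to and from 24 h that involve the 10 genes are also given without replicate A. The 14 d and 21 d libraries carry other index sequences than the 3 earlier stages. A difference across that boundary and a difference between libraries of other index sequences cannot be told apart. The labels name no batch, and some lane numbers occur on both sides of the boundary. All 10 osteoblast markers examined were detected, and at confluence 4 of them were higher and 6 did not pass (median log2 change 0.63). Of 10 striated muscle markers, 9 were under 1 RPKM in every library, as were all 6 endothelial and 5 of 6 adipocyte markers. Among 6 blood cell markers Ptprc was listed at 0 everywhere, but Tyrobp stood at 179 to 256 RPKM in confluent B, 14 d B and 21 d A and at no more than 0.84 RPKM in the other 7 libraries. The summed blood markers thus ran from 6.16 to 185 RPKM in confluent cells, mostly through Tyrobp. In confluent A and B Csf1r read 2.29 and 2.23 RPKM, and Cd14 read 1.99 and 2.21 RPKM. Fcer1g read 1.22 and 1.07 RPKM there, and Cd68 0.66 and 0.90 RPKM. The part of the blood markers in the results was not tested.

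The sequence that TEAD proteins bind, with the core GGAATG, which reads CATTCC when it lies on the opposite strand, was searched in the RefSeq promoters of GRCm38.p6, 250 bases before to 50 bases after each start site. A window was found for 7 of the 10 genes, namely Ccn1, Ankrd1, Amotl2, Yap1, Wwtr1, Tead2 and Tead3. The hexamer was present, on either strand, in windows of 6 of these 7 genes, all but Tead2, while 14.7% of 32817 promoters of the same length and 16.6% of 26994 genes held it. The 30-base sites of the targets and coactivators are shown 5′ to 3′ along the strand of the gene, with the hexamer in capitals. They are shown because the letters of the TEAD core occur there in these windows. Distances are to the RefSeq start. The sites of Ankrd1 and Amotl2 lie inside the gene spans given below, which come from GENCODE and start elsewhere. The match is a description of the letters and says nothing of binding in these cells.
Ccn1, chr3:145650071-145650100, minus strand, hexamer 103 bases upstream of the start: cgcgccaaccaaCATTCCtgagatgtttga
Ankrd1, chr19:36120037-36120066, minus strand, 210 bases upstream: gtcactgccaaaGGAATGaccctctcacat
Ankrd1, chr19:36119950-36119979, minus strand, 123 bases upstream: gacactaagtctGGAATGaaaattcacctg
Amotl2, chr9:102717727-102717756, plus strand, 65 bases upstream: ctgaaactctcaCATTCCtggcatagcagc
Yap1, chr9:8004720-8004749, minus strand, 141 bases upstream: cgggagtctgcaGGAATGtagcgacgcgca
Wwtr1, chr3:57576029-57576058, minus strand, 136 bases upstream: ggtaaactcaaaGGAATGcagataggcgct

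Ankrd1 held the hexamer at both of its sites in the same orientation, and Ccn1 and Amotl2 held it as CATTCC followed by T. The 7 genes were also searched on both strands for the AP-1 element TGANTCA, bound by Fos and Jun proteins that often sit beside TEAD at enhancers, and for the CArG box of serum response factor. Neither was found in a window of any of the 7, against 7.81% of promoters with the AP-1 element and 1.63% with the CArG box.

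Confluent cells were compared with subconfluent cells to see which of these genes changed with density in growth medium. Of the 10 genes, 3 were lower in confluent cells (Tead4, Ccn2 and Ankrd1) and the other 7 did not pass, where 3.28% of all tested genes passed, 1.34% as lower and 1.95% as higher. Ccn2 and Ankrd1 fell by more than 2-fold, and 1.43% of all genes passed with a change of that size in either direction. The coactivators and Ccn1, the most abundant of the targets, did not pass. The median change of the 10 genes was -0.25 on the log2 scale, and that of all genes was 0.000022. In these bulk samples fewer cells of a type and less RNA per cell cannot be told apart.

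**Figure D1:**
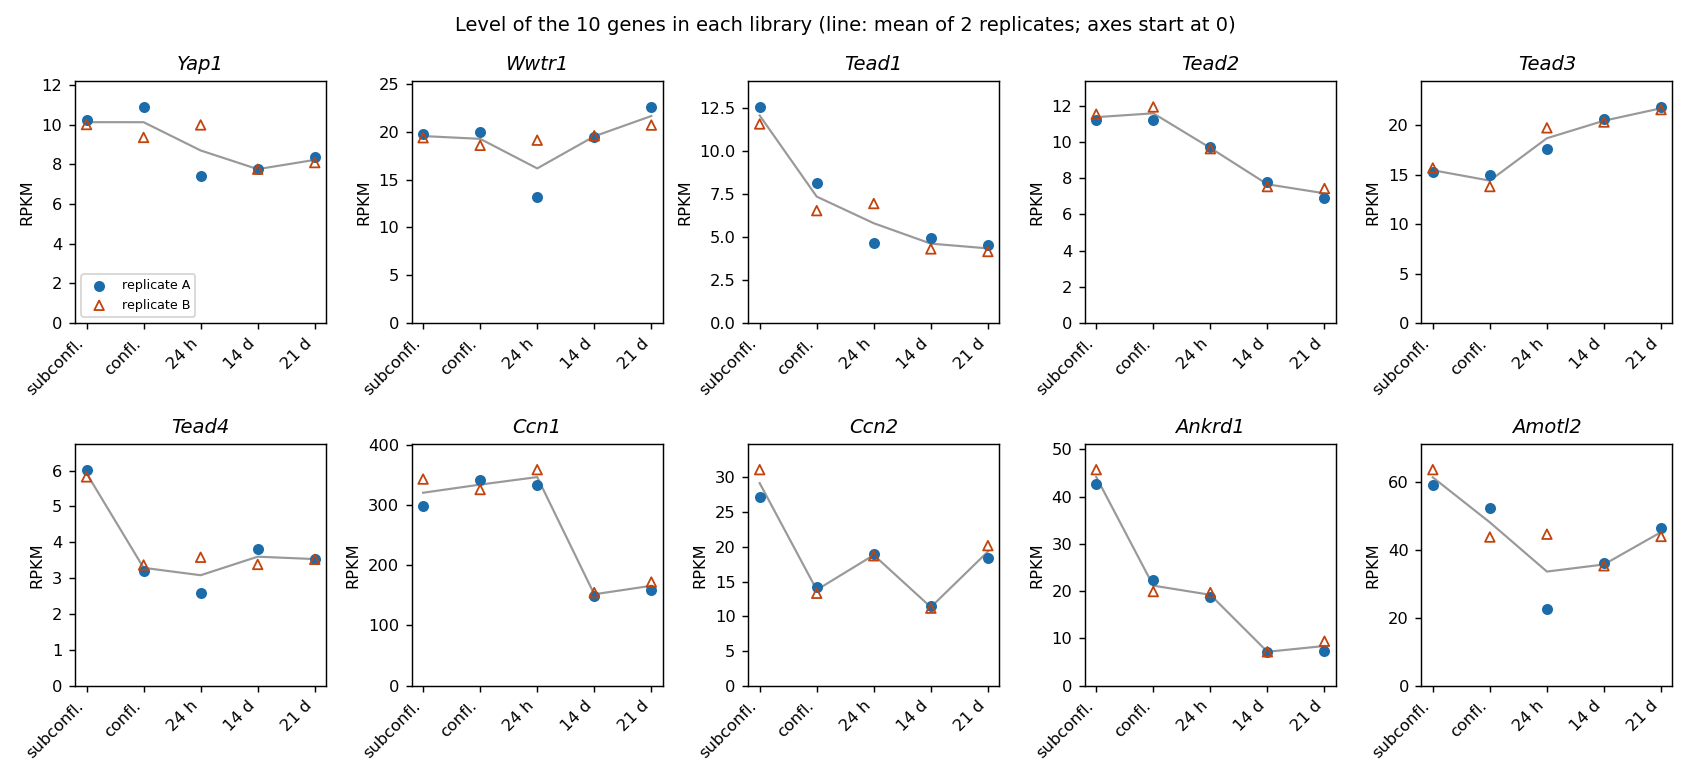
RPKM of each gene (vertical axis, starting at 0) in each library at the 5 stages of culture (horizontal axis), with circles for replicate A, triangles for replicate B and a grey line through the stage means. Ccn2 and Ankrd1 step down at confluence while Ccn1 stays at 298 to 359 RPKM through 24 h and lies at 149 to 172 RPKM at 14 d and 21 d.

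Yap1 (chr9:7931999-8004596, minus strand, GRCm38) encodes YAP, the coactivator that the Hippo kinases restrain. Its level was 10.2 and 10.0 RPKM in subconfluent replicates A and B and 10.9 and 9.35 RPKM in confluent A and B, so the stages overlapped. The change was -0.03 ± 0.12 (log2, SE, n = 2 against 2; adjusted p = 0.96, edgeR), with a 95% interval from -0.31 to 0.26. Later levels were 7.41 and 9.98 RPKM at 24 h, 7.76 and 7.75 RPKM at 14 d and 8.36 and 8.08 RPKM at 21 d. The lowest value of the 10 libraries was thus that of 24 h A, at the stage whose replicates stood apart from each other. Yap1 shares 116 of its exon bases with Gm20416 on the other strand, which averaged 248.5 counts against 5530 for Yap1.

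Wwtr1 (chr3:57455649-57575910, minus strand) encodes TAZ, the paralog of YAP. It was the more abundant of the coactivators per length in every library, at 19.7 and 19.4 RPKM in subconfluent cells and 19.9 and 18.6 RPKM in confluent cells. Its change at confluence was -0.05 ± 0.14 (log2; adjusted p = 0.92, edgeR), with a 95% interval from -0.37 to 0.27. At 24 h the replicates read 13.2 and 19.1 RPKM, at 14 d 19.5 and 19.6 RPKM, and at 21 d 22.6 and 20.7 RPKM. Apart from 24 h A, Wwtr1 stayed between 18.6 and 22.6 RPKM. In CPM, which carry the scaling factors of the edgeR fit, it read 43.7 in 24 h A. The other libraries through 24 h read 55.8 to 60.2 CPM, and those at 14 d and 21 d 66.9 to 74.6 CPM. The change from 24 h to 14 d was 0.41 ± 0.14 (log2; adjusted p = 0.085, edgeR) and did not pass. It passed in DESeq2 (adjusted p = 0.0397). Without 24 h A it was 0.204 and without 24 h B 0.59. This step spans the change of index sequences.

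The ratio of Yap1 to Wwtr1 in RPKM was 0.52 ± 0.0021 (SD, n = 2) before confluence. It was 0.52 ± 0.030 at confluence and 0.54 ± 0.027 at 24 h, where replicate B alone read 0.52. It was 0.40 ± 0.0019 at 14 d and 0.38 ± 0.015 at 21 d, below every library of the earlier stages. The ratio was not tested, and the drop coincides with the change of index sequences. Neither coactivator passed the F test for any difference among the 5 stages (adjusted p = 0.47 for Yap1 and 0.091 for Wwtr1, edgeR), which 48.9% of all genes and 7 of the 10 genes passed. These calls depended on the 24 h libraries, as Wwtr1 passed without 24 h A or 24 h B and Yap1 passed without 24 h B. Such fits leave a single library at 24 h. The number of all genes that passed also moved when a library was left out, as given below. Wwtr1 also passed in DESeq2 (adjusted p = 0.036) and with upper-quartile factors (0.047).

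The TEAD proteins give YAP and TAZ their access to DNA, and the 4 genes did not move together. Tead1 (chr7:112679318-112906807, plus strand) was at 12.5 and 11.6 RPKM in subconfluent cells and at 8.15 and 6.52 RPKM in confluent cells. Its stages did not overlap, but the change of -0.74 ± 0.17 (log2) had an adjusted p of 0.074 in edgeR's fit. It passed in DESeq2 (adjusted p = 0.0017), in a fit of the 2 groups alone (0.044) and in a fit without the 24 h samples (0.010). In the other 13 of 16 alternatives it did not pass, with log2 changes over all alternatives from -0.91 to -0.59. Tead1 then read 4.65 and 6.93 RPKM at 24 h, 4.91 and 4.30 RPKM at 14 d and 4.51 and 4.15 RPKM at 21 d, and the change from subconfluent cells to 21 d was -1.36 ± 0.18 (adjusted p = 0.00055, edgeR).

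Tead4 (chr6:128224288-128300823, minus strand) was the lowest of the 10 genes at every stage. It stood at 6.03 and 5.83 RPKM in subconfluent cells and at 3.21 and 3.37 RPKM in confluent cells, a fall of 1.83-fold (log2 change -0.88 ± 0.13, adjusted p = 0.019, edgeR). Both confluent libraries lay well below both subconfluent ones. The direction held in every alternative, but the adjusted p rose to between 0.092 and 0.14 when any 1 of the 4 libraries was left out, to 0.062 when counts were scaled by library size alone and to 0.055 in limma on log2(RPKM + 0.1). Later levels were 2.58 and 3.58 RPKM at 24 h, 3.82 and 3.38 RPKM at 14 d and 3.54 and 3.52 RPKM at 21 d. Tead4 did not return to its subconfluent level in any later library.

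Tead2 (chr7:45215753-45233644, plus strand) read 11.2 and 11.5 RPKM before confluence and 11.2 and 11.9 RPKM at confluence. The log2 change was 0.00 ± 0.08 (adjusted p = 1.0, edgeR), with a 95% interval from -0.19 to 0.19. Its later levels were 9.70 and 9.62 RPKM at 24 h, 7.78 and 7.53 RPKM at 14 d and 6.89 and 7.42 RPKM at 21 d. No single step passed, but each stage after confluence lay below the one before it without overlap, and 21 d against subconfluent gave -0.55 ± 0.08 (adjusted p = 0.0012, edgeR). Tead2 shares 13 exon bases with Cd37 on the other strand, which averaged 5.1 counts against 2926 for Tead2.

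Tead3 (chr17:28331671-28350817, minus strand) went the other way. Its level was 15.2 and 15.7 RPKM in subconfluent cells and 15.0 and 13.8 RPKM in confluent cells (log2 change -0.13 ± 0.07, adjusted p = 0.45, edgeR). At 24 h it read 17.6 and 19.7 RPKM, at 14 d 20.6 and 20.3 RPKM and at 21 d 21.8 and 21.6 RPKM. Tead3 was therefore higher in every differentiating library than in any growth-medium library, by 0.61 ± 0.07 (log2; adjusted p = 0.00043, edgeR) at 21 d against subconfluent cells.

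As a share of the summed RPKM of the 4 genes, Tead1 went from 26.9 ± 1.38% (SD, n = 2) in subconfluent cells to 20.0 ± 2.39% at confluence and 11.8 ± 0.673% at 21 d. Tead3 went from 34.5 ± 0.940% to 39.3 ± 0.821% at confluence, 50.3 ± 1.07% at 24 h (49.5% in replicate B alone) and 59.1 ± 0.379% at 21 d. The sum itself was 44.8 ± 0.291 RPKM in subconfluent cells, 36.6 ± 1.39 RPKM in confluent cells and between 36.3 and 37.2 RPKM on average at the 3 later stages. In RPKM the sum thus fell at confluence, and the make-up went on changing afterwards at a similar sum. RPKM do not carry the scaling factors (TMM) of the edgeR fit, which ran from 0.90 in 24 h A to 1.09 in confluent A. The sum was not computed with these factors and may not stay similar under them. The shares were not tested.

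**Figure D2:**
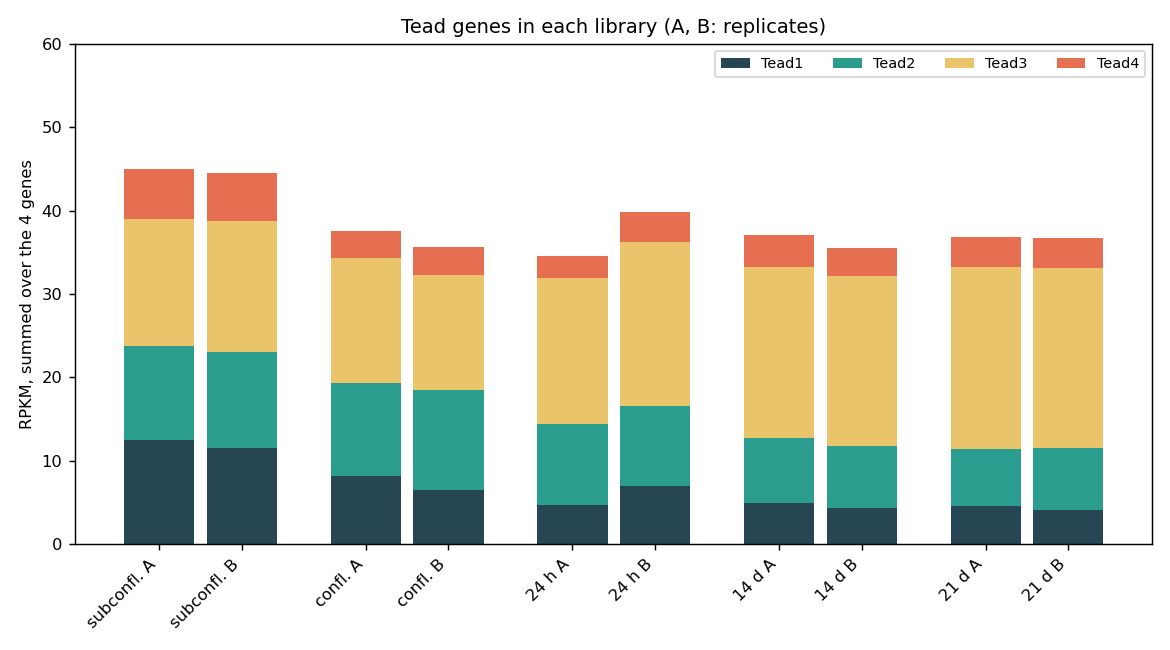
Summed RPKM of Tead1 to Tead4 (vertical axis) in each of the 10 libraries (horizontal axis, replicates A and B of each stage side by side), with a coloured segment per gene. The Tead3 segment takes up 33.8 to 35.2% of the bar in subconfluent cells and 58.8 to 59.4% at 21 d.

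Ccn2 (chr10:24595442-24598683, plus strand) encodes a secreted matricellular protein of the CCN family that promotes matrix production. It was at 27.2 and 31.1 RPKM in subconfluent cells and at 14.3 and 13.3 RPKM in confluent cells. The stages did not overlap, and the fall of 2.15-fold (log2 change -1.11 ± 0.10, adjusted p = 0.0026, edgeR) passed in all 16 alternatives. In GENCODE Ccn2 shares 665 of its 2861 exon bases with Gm15270, a transcript annotated on the other strand that averaged 1143 counts against 2008 for Ccn2. The length that the authors give for Ccn2 is 1614 bases, so the shared stretch in their counts may be smaller. The strand setting of the counting is not given in the sources used here, so reads from the shared stretch cannot be told apart. The change of Gm15270 at confluence was -1.03 ± 0.24 (log2; adjusted p = 0.074, edgeR). At the later steps, in order, Gm15270 changed by 0.16, -0.10 and 0.45 (adjusted p = 0.72, 0.83 and 0.31, edgeR).

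Ankrd1 (chr19:36111961-36120099, minus strand) encodes an ankyrin-repeat protein of stretched muscle that is also a widely used reporter of YAP activity. Its level was 42.6 and 45.7 RPKM in subconfluent cells and 22.4 and 19.9 RPKM in confluent cells. This fall of 2.13-fold (log2 change -1.09 ± 0.13, adjusted p = 0.0059, edgeR) left no overlap between the stages. The adjusted p was 0.053 without subconfluent A, 0.058 without subconfluent B and 0.073 without confluent B, with log2 changes of -1.13, -1.05 and -1.01. Of the striated muscle markers, Acta1 was above 1 RPKM (41.7 and 37.1 RPKM in confluent cells) and Myod1 and Myh7 were listed at 0 in every library.

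Ccn1 (chr3:145646976-145649981, minus strand), the CCN family gene for a secreted adhesion protein, was the highest of the 10 genes in every library. It stood at 298 and 343 RPKM in subconfluent cells and at 342 and 326 RPKM in confluent cells, so the stages overlapped. The log2 change was 0.03 ± 0.10 (adjusted p = 0.93, edgeR), with a 95% interval from -0.21 to 0.28. The interval for Ccn2 ran from -1.35 to -0.87, and the difference between the changes of these related genes was not tested. The CATTCC of the Ccn1 promoter printed above lies in the following 250 bases that end at the start site, shown because Ccn1 has the hexamer and did not pass the test at confluence.
Ccn1, chr3:145649986-145650235, minus strand, GRCm38.p6, RefSeq, hexamer in capitals: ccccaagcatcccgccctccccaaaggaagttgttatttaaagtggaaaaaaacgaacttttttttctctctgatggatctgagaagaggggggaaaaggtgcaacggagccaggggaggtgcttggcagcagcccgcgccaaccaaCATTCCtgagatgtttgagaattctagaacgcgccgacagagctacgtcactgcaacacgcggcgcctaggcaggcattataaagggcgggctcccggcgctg

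Amotl2 (chr9:102716672-102733418, plus strand) encodes an angiomotin-like junction protein that binds YAP and restrains it, a target that feeds back on the pathway. It was at 59.0 and 63.5 RPKM in subconfluent cells and at 52.3 and 43.7 RPKM in confluent cells. Although both confluent libraries lay lower, the change of -0.38 ± 0.25 (log2; adjusted p = 0.52, edgeR) did not pass, and its 95% interval ran from -0.97 to 0.21. The 24 h libraries read 22.6 and 44.5 RPKM, the widest gap of any stage for this gene. In a fit without the 24 h samples the change at confluence was -0.37 with an adjusted p of 0.041.

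**Figure D3:**
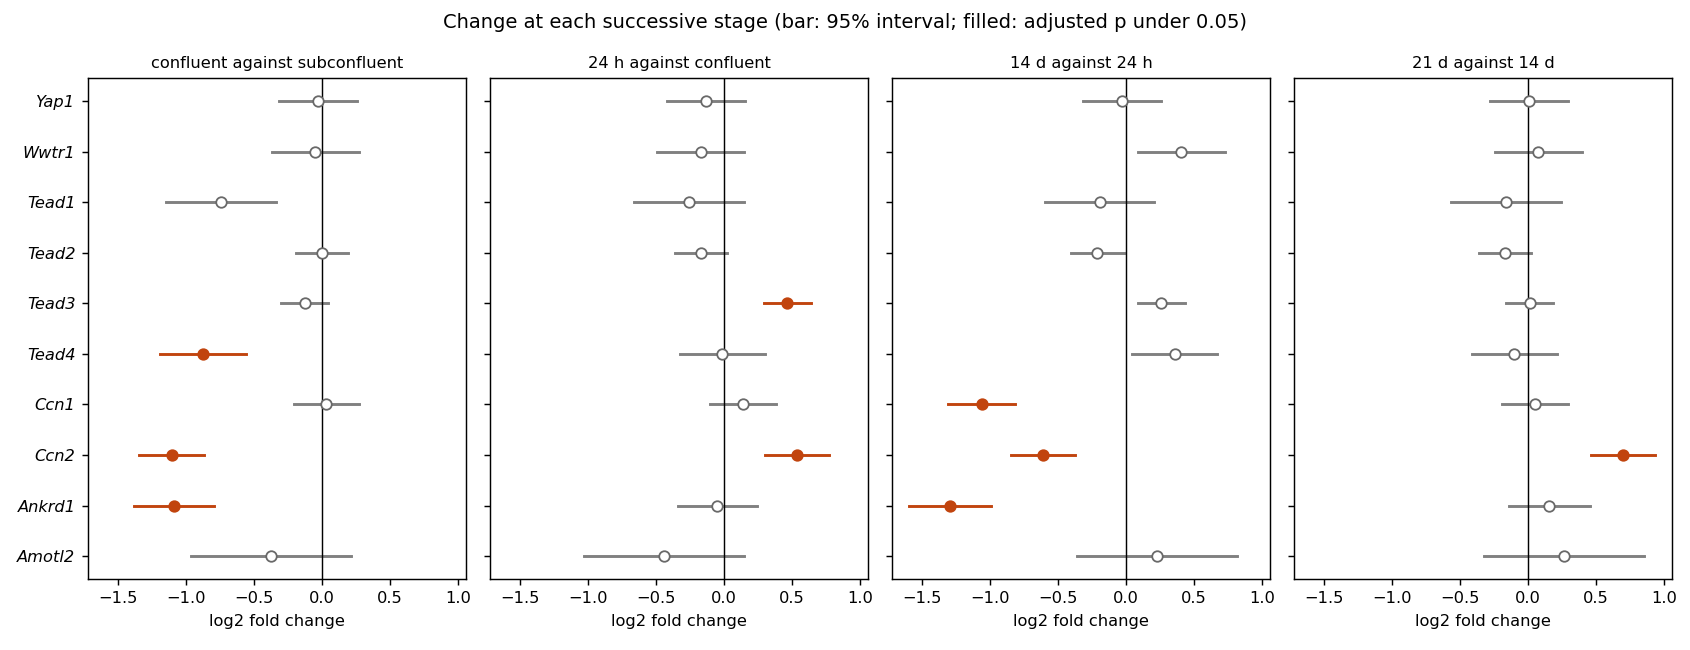
Log2 fold change (horizontal axis) of each of the 10 genes (vertical axis) at each of the 4 successive steps, with the 95% interval as a bar and filled red points where the adjusted p was under 0.05. At confluence Tead4, Ccn2 and Ankrd1 lie left of 0, and from 24 h to 14 d Ccn1, Ccn2 and Ankrd1 do.

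The genes of the upstream cascade and the wider target set were read beside these 10 at confluence. Of 29 Hippo kinases and regulators, 27 were tested, 1 was higher and 2 were lower in confluent cells, and the median change of the list was -0.15 (log2). Lats2, the kinase that phosphorylates YAP and is itself a YAP target, read 12.3 and 11.8 RPKM in subconfluent cells and 7.53 and 6.57 RPKM in confluent cells (log2 change -0.80 ± 0.15, adjusted p = 0.035, edgeR). Ajuba, a LIM protein that inhibits LATS kinases, went from 34.8 and 37.4 RPKM to 22.7 and 21.3 RPKM (-0.74 ± 0.08, adjusted p = 0.0040). Both genes were lower in both confluent libraries than in either subconfluent one. Dchs1, the cadherin ligand of FAT4, passed as higher (2.39 ± 0.30, adjusted p = 0.0083) but was never above 0.08 RPKM. Map4k4, a kinase upstream of LATS, changed by -0.13 (adjusted p = 0.74) and Amot, the founding angiomotin, by -0.57 (adjusted p = 0.26), and neither passed.

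Of 18 other published YAP and TAZ targets, 17 were tested, 4 were lower, 1 was higher and the median change was -0.33 (log2). Lats2 is counted here as well. Igfbp3 was listed at 0 in every library. Nuak2, a kinase of the AMPK family, read 5.52 and 5.77 RPKM in subconfluent and 2.95 and 2.75 RPKM in confluent cells (log2 change -1.01 ± 0.11, adjusted p = 0.0053, edgeR). Axl, a receptor tyrosine kinase, read 71.3 and 71.0 RPKM and then 39.1 and 34.1 RPKM (-0.98 ± 0.18, adjusted p = 0.036), and Ccdc80, a secreted matrix protein, changed by -0.64 ± 0.09 (adjusted p = 0.012). Nt5e, the ectonucleotidase CD73, moved the other way, from 0.44 and 0.41 RPKM to 1.02 and 1.36 RPKM (1.45 ± 0.22, adjusted p = 0.017), and reached 16.2 and 14.7 RPKM at 21 d. Myof (-0.33, adjusted p = 0.49) and Asap1 (-0.38, adjusted p = 0.39), the highest of the list in CPM, which has no length correction, among those that did not pass, lay below 0 with intervals that reached above it. F3, tissue factor, was near Asap1 in RPKM (31.0 and 34.2, then 32.8 and 32.6) and changed by -0.02 (adjusted p = 0.95).

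The CCN and ankyrin paralogs of the targets included the largest fall among the listed genes at confluence. Ccn5, which lacks the C-terminal domain of its relatives, stood at 34.1 and 38.4 RPKM in subconfluent cells and at 7.73 and 7.93 RPKM in confluent cells (log2 change -2.24 ± 0.15, adjusted p = 0.00088, edgeR). Ccn4, a Wnt-induced family member, went from 20.6 and 20.2 RPKM to 9.11 and 7.93 RPKM (-1.29 ± 0.17, adjusted p = 0.010). Ccn3 read 37.7 and 40.0 RPKM and then 41.1 and 36.7 RPKM, a change of -0.02 ± 0.11 (adjusted p = 0.96). Within the CCN family, Ccn2, Ccn4 and Ccn5 thus fell at confluence, while Ccn1 and Ccn3 did not pass. Ankrd23, a relative of Ankrd1, changed by 0.41 ± 0.18 (adjusted p = 0.31), and of the 6 paralogs tested 2 were lower and 4 did not pass.

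Serum response factor (SRF) and its actin-sensing coactivators (MRTF) share many targets with YAP, so their genes were read beside Ankrd1 and the CCN genes. Of the 17 SRF and MRTF genes, 2 were lower and 15 did not pass at confluence, with a median change of -0.20 (log2). Zyx, the focal adhesion protein zyxin, fell from 264 and 286 RPKM to 129 and 115 RPKM (-1.20 ± 0.11, adjusted p = 0.0024, edgeR), and Actg2, a smooth muscle actin, changed by -0.70 ± 0.13 (adjusted p = 0.041). The cytoplasmic actins Actg1 (-0.31, adjusted p = 0.36) and Actb (-0.20, adjusted p = 0.60) did not pass. All 16 proliferation genes had negative changes at confluence, with a median of -0.36, and 2 of them passed. These were Rrm2, a subunit of ribonucleotide reductase (-0.67 ± 0.13, adjusted p = 0.040), and Mcm3, a helicase subunit of DNA replication (-0.59 ± 0.12, adjusted p = 0.044). The abundant Top2a (-0.48, adjusted p = 0.28) and Mcm5 (-0.48, adjusted p = 0.073) did not pass. The summed proliferation genes stood at 1142 to 1148 RPKM in subconfluent and 851 to 905 RPKM in confluent cells, and their part in the changes of Ccn2, Ankrd1 and Tead4 was not tested.

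**Figure D4:**
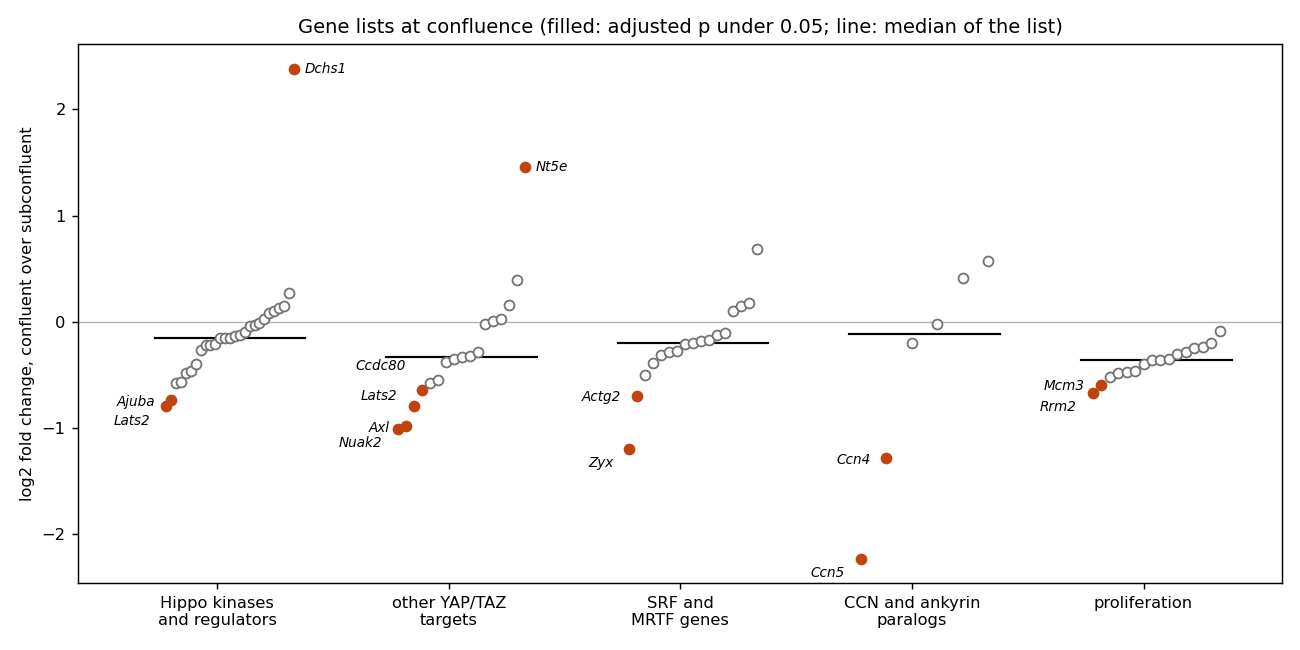
Log2 fold change of confluent over subconfluent cells (vertical axis) for each tested gene of 5 lists (horizontal axis), with red filled points at an adjusted p under 0.05 and a black line at the median of each list. The list medians lie between -0.36 and -0.11, and Ccn5 is the lowest point and Dchs1 the highest.

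Cells after 24 h in osteogenic medium were compared with confluent cells. No library came from cells kept in growth medium for that time, so the medium and the time past confluence cannot be told apart. Of the 10 genes, 2 were higher, Tead3 and Ccn2, both by less than 2-fold, and the other 8 did not pass. Of all genes 5.15% passed, 3.59% as higher and 1.57% as lower, and 2.13% passed with more than 2-fold change. Tead3 rose by 0.46 ± 0.07 (log2; adjusted p = 0.016, edgeR) and by 0.49 without 24 h A (adjusted p = 0.0071). Ccn2 read 18.9 and 18.7 RPKM at 24 h, a rise of 0.54 ± 0.10 (adjusted p = 0.028), and of 0.48 without 24 h A (adjusted p = 0.034). Both calls were lost when either confluent library was left out, with adjusted p of 0.068 and 0.11 for Tead3 and 0.13 and 0.16 for Ccn2, and when the 2 groups were fitted alone. With counts scaled by library size alone, which moved the median of all genes by -0.13, Tead3 changed by 0.34 (adjusted p = 0.13) and Ccn2 by 0.40 (adjusted p = 0.080). Ccn1 (334 and 359 RPKM) changed by 0.14 ± 0.10 (adjusted p = 0.44) and Ankrd1 (18.8 and 19.7 RPKM) by -0.05 ± 0.12 (adjusted p = 0.85), and without 24 h A by 0.14 and -0.06. Without 24 h A the changes of the other 6 genes ran from -0.23 for Tead2 to 0.16 for Tead4, and none of them passed. Some changes depended on which 24 h library was kept. Without 24 h B Amotl2 changed by -0.93 and Wwtr1 by -0.38, against -0.07 and 0.03 without 24 h A.

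Cells at 14 d were compared with those at 24 h to cover the span of matrix maturation. Here 3 of the 10 genes were lower, Ccn1, Ccn2 and Ankrd1, and the other 7 did not pass. Of all genes 17.3% passed, 8.21% as lower and 9.08% as higher, and 5.98% passed with more than 2-fold change, as Ccn1 and Ankrd1 did. Ccn1 fell to 149 and 154 RPKM, a log2 change of -1.06 ± 0.10 (adjusted p = 0.0011, edgeR) that was -1.07 without 24 h A. Ankrd1 fell to 7.18 RPKM in both replicates, a change of -1.30 ± 0.13 (adjusted p = 0.0011) that was -1.28 without 24 h A. Ccn2 fell to 11.5 and 11.2 RPKM, a change of -0.61 ± 0.10 (adjusted p = 0.0087) that was -0.55 without 24 h A. The Ccn2 call was lost without 14 d A (adjusted p = 0.068), without 14 d B (0.076) and with the 2 groups alone (0.13), and the Ccn1 call with the 2 groups alone (adjusted p = 0.080). Tead3 changed by 0.26 ± 0.07 (adjusted p = 0.052) and passed without 24 h A (0.23, adjusted p = 0.049), and without that library the other 6 genes did not pass. The levels of Ccn1 and Ankrd1 at 14 d lay below all 6 libraries of the earlier stages. Without 24 h B, 8 of the 10 genes passed, along with 10063 genes in all.

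The same interval held the main fall of the SRF and MRTF genes, of which 12 of 17 were lower at 14 d than at 24 h and 5 did not pass, with a median change of -0.83 (log2) beside 0.01 for all genes. Without 24 h A the median of this list was -0.70. Myl9, a myosin light chain, changed by -1.71 (adjusted p = 0.0014, edgeR), Acta2, smooth muscle actin, by -1.56 (adjusted p = 0.0006), and Srf itself by -0.65 (adjusted p = 0.011). Without 24 h A these changes were -1.42, -1.40 and -0.75, and each passed. Among the other YAP and TAZ targets 2 were lower and 2 higher at this step. Their median change was 0.12, and -0.19 without 24 h A. Nuak2 was lower (-0.84, adjusted p = 0.0043) and Nt5e higher (2.58, adjusted p = 0.00057). Ccn3, which had not passed at confluence, fell from 35.7 and 43.0 RPKM at 24 h to 7.24 and 7.95 RPKM at 14 d (-2.24, adjusted p = 7.6e-05), while Ccn4 rose by 1.09 (adjusted p = 0.0066). Without 24 h A the changes of Nuak2, Nt5e, Ccn3 and Ccn4 were -0.85, 2.31, -2.33 and 0.88, and each passed. Of the proliferation genes 9 of 16 were lower, with a median of -0.52 (-0.55 without 24 h A). Of the osteoblast markers 8 of 10 were higher, with a median of 1.18 (1.03 without 24 h A). The part of either list in the fall of Ccn1 and Ankrd1 was not tested, and neither can be told apart from the change of index sequences.

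From 14 d to 21 d, 1 of the 10 genes passed, as a rise of less than 2-fold. Of all genes 9.72% passed, 3.77% as higher and 5.95% as lower, and 3.97% passed with more than 2-fold change. Ccn2 rose to 18.5 and 20.2 RPKM, by 0.70 ± 0.10 (log2; adjusted p = 0.0056, edgeR), and its direction thus turned at every step of the series. The call was lost without 14 d A, without 14 d B and without 21 d B. Ccn1 (160 and 172 RPKM) changed by 0.05 ± 0.10 and Ankrd1 (7.40 and 9.41 RPKM) by 0.16 ± 0.13, and neither passed (adjusted p = 0.85 and 0.55). Ccn5 rose with Ccn2 at this step, by 1.66 (adjusted p = 0.00085), while Ccn4 fell by 1.19 on the log2 scale (adjusted p = 0.0052) and all 16 proliferation genes fell, with a median change of -1.90.

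Over the whole series, 7 of the 10 genes differed between 21 d and subconfluent cells, 6 of them lower and Tead3 higher. Of all genes 50.7% passed, 23.5% as lower and 27.3% as higher, and 27.6% passed with more than 2-fold change, as Tead1 and Ankrd1 did. Ankrd1 had the largest change, -2.27 ± 0.13 (log2; adjusted p = 1.5e-05, edgeR), a fall of 4.84-fold. Ccn1 changed by -0.83 ± 0.10 (adjusted p = 0.00047), Tead4 by -0.63 ± 0.13 (adjusted p = 0.0064) and Ccn2 by -0.48 ± 0.10 (adjusted p = 0.0061). Yap1 (-0.18 ± 0.12, adjusted p = 0.25), Wwtr1 (0.26 ± 0.14, adjusted p = 0.15) and Amotl2 (-0.32 ± 0.25, adjusted p = 0.32) did not pass. Without the 24 h samples in the fit Wwtr1 (0.25, adjusted p = 0.0095) and Amotl2 (-0.33, adjusted p = 0.017) passed, and with the 2 groups alone all 3 did. In the same comparison 8 of the 27 tested Hippo genes were lower and 4 higher, among them Amot (-1.48, adjusted p = 0.0014) and its relative Amotl1 (1.27, adjusted p = 0.0047), which moved in opposite directions while Amotl2 did not pass. Of the other YAP and TAZ targets 7 were lower and 3 higher, with Nt5e at 5.29 and Gadd45a, a stress-response gene, at 2.57 (log2). Of the SRF and MRTF genes 14 of 17 were lower and of the proliferation genes 16 of 16, with median changes of -1.20 and -3.16 beside 0.04 for all genes.

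The 4 targets followed different courses. In stage means, Ccn1 held at 320 to 346 RPKM through 24 h and at 152 to 166 RPKM later. Ankrd1 stepped down at confluence and again by 14 d, Ccn2 fell, rose, fell and rose, and Amotl2 passed at no step. Likeness to each target was measured over the 10 libraries as the root mean square difference of centred log2 CPM, so that 0 is an identical course. Nearest to Ccn1 were Them6 (0.098), Rtl3 (0.10) and Pus7l (0.12), against a median of 0.63 over all genes. Nearest to Ccn2 were Ccdc9b (0.14), Taf15 (0.15) and Tinagl1 (0.20), and nearest to Ankrd1 were Khdrbs3 (0.14), Irf5 (0.17) and Sytl2 (0.19), with medians over all genes of 0.61 and 0.999. Amotl2 was closest to Prkx (0.086), Atxn2l (0.089) and Snx9 (0.092), against a median of 0.56. Amotl2 read 72.7 CPM in 24 h A and 121 to 189 CPM in the other libraries, so that library weighs on its likeness. Likeness without 24 h A was not computed. None of these neighbours belongs to the 10 genes or to the lists above.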

How the data were processed

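RNA of MC3T3-E1 cells was sequenced as 51 bp paired-end reads. The submitters' processing notes name FastQC, TopHat2 2.0.9, R 3.0.1 and mm10, and the counting tool and strand setting are not given in the sources used here. The authors deposited raw counts per gene and RPKM, which scale the counts by gene length and by a read total, and the counts summed to 1.44 to 1.60 times this total. The merged column was used for the libraries run in 2 lanes. Columns were matched to samples by title, and 39547 of 40620 Ensembl IDs to symbols in GENCODE vM21.

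Counts were fitted with edgeR 4.0.16 in R 4.3.3 (filterByExpr, TMM, quasi-likelihood, 5 groups), with Benjamini-Hochberg adjustment over 20808 genes, and SEs are the log2 change over the square root of F. RPKM gave levels, ratios and shares, without tests. The procedure was tested on simulated data. DESeq2 1.42.0 and limma 3.58.1 served as alternatives. Depth was 44736156 to 162939333 counts, and 2 replicates per stage limit the precision.

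The 10 genes and all lists were chosen with earlier results of these data known. Beyond the 10, genes are named that passed at confluence (up to 6 per list, by size), up to 2 genes per list that did not, by mean CPM, and the 3 nearest to each target. F3 was named at confluence outside this rule. Genes named at later steps were chosen after their values were seen. ChIP-seq and mouse data were not analysed here.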

Additional observations from a re-analysis of the deposited data

How the results depend on the processing

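For the changes of the single genes, 704 alternative values kept direction and side of the threshold, 25 fell short of it, 28 newly passed and 23 changed sign, all of these last for genes that passed in neither fit. At confluence the number of the 10 genes that passed was 5 without the 24 h samples and 1 to 2 with a library left out, and the number of all genes, 683, ran from 351 (replicate block) to 3299 (no 24 h samples) and from 120 to 340 with a library left out. For 24 h against confluent it was 0 at more than 2-fold, with library size alone and with the 2 groups alone, and 0 to 6 with a library left out, with 1072 genes in all against 0 (2 groups alone), 2766 (DESeq2) and 182 to 8629 (a library left out). For 14 d against 24 h it was 5 in DESeq2, 1 with the 2 groups alone and 2 to 8 with a library left out, with 3597 genes in all against 319 (2 groups alone) and 830 to 10063. For 21 d against 14 d it was 0 at more than 2-fold, 2 with the 2 groups alone and 0 to 1 with a library left out, with 2023 genes against 5870 (2 groups alone) and 734 to 886. At 21 d against subconfluent it was 2 at more than 2-fold. Over the 5 stages 7 to 10 of the 10 genes passed with a library left out, against 7, and 7116 to 15743 genes in all, against 10173. A lone sample left in a stage was assumed to vary like the others.

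Letters A and B did not pair the samples: over 10 pairs of stages the correlation of their deviations ran from -0.33 to 0.32 and passed 0.1 in 2. With the replicate letter as a block, 3, 1, 3, 1 and 7 of the 10 genes passed in the 5 comparisons in the order above and 7 over all stages. Among the 10 genes the block thus cost 1 call, Ccn2 at 24 h (0.54, adjusted p = 0.065, edgeR). Over all genes it lowered the number passing from 683 to 351 at confluence and from 2023 to 1464 at 21 d against 14 d. Over the 5 stages it lowered that number from 10173 to 8682.

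Signs turned only for changes that did not pass, given here as log2 ranges with a library left out. At confluence they were Yap1 (-0.14 to 0.078), Wwtr1 (-0.095 to 0.0012), Ccn1 (-0.058 to 0.12) and Tead2 (-0.045 to 0.048), the last also at -0.0054 with DESeq2 size factors, -0.014 with library size alone and -0.0020 in DESeq2. At 24 h against confluent they were Yap1 (-0.29 to 0.020), Wwtr1 (-0.38 to 0.029), Ankrd1 (-0.13 to 0.036) and Tead4 (-0.19 to 0.16), the last also at 0.0052 with upper-quartile factors. At 14 d against 24 h they were Yap1 (-0.19 to 0.093), Tead1 (-0.42 to 0.015) and Amotl2 (-0.15 to 0.69). At 21 d against 14 d they were Yap1 (-0.012 to 0.028, and -0.013 with the sum of lanes), Tead3 (-0.00026 to 0.018), Ccn1 (-0.0072 to 0.11) and Ankrd1 (-0.035 to 0.32). The cause was not tested.

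In CPM, without length correction, the ratio of Yap1 to Wwtr1 was 0.99, 1.004, 1.04, 0.76 and 0.73 from subconfluent cells to 21 d. By construction the longer genes weigh more there. The Tead shares in that order were 49.6, 39.7, 32.5, 27.9 and 26.3% for Tead1, 18.7, 25.1, 22.0, 18.5 and 17.3% for Tead2, 23.9, 29.4, 39.9, 46.6 and 49.5% for Tead3, and 7.80, 5.73, 5.54, 6.96 and 6.85% for Tead4. With 0.1 added to each RPKM the ratio was 0.520 before confluence and 0.4004 at 14 d, and the Tead4 share at 21 d was 9.78%. Library size alone moved the median of all genes by -0.15 and upper-quartile factors by 0.13 at 21 d against subconfluent (log2).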
